A study of Mus musculus with 11 samples.

Results

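The olfactory receptor genes of mouse chromosome 2 were described by their contact with the nuclear lamina in oligodendrocyte lineage cells. They were taken as the regions of the DamID table whose symbol was Olfr followed by a digit and whose chromosome was 2, which gave 288 of 21534 regions. The table held 1116 olfactory receptor regions in all. Where more than 1 Mb separated neighbouring receptors a new cluster was started, and this gave 3 clusters. DamID marks DNA close to a protein of choice: here the bacterial adenine methylase Dam was fused to lamin B1 (LMNB1), a filament protein of the nuclear lamina, and untethered Dam recorded how readily any free enzyme reached the DNA. The starting cells were primary oligodendrocyte precursor cells of wild-type C57BL/6 mice, isolated from the cortex at postnatal day 7, which had carried a lentiviral Dam-LMNB1 or Dam construct for 1 day. They then spent 72 h in differentiation medium (called OL, for oligodendrocyte) or in proliferation medium (called OPC). The library titles mark the OL condition as T3 and the OPC condition as PF. The 11 libraries comprised OL Dam-LMNB1 (3 libraries, numbered 18, 19 and 20), OPC Dam-LMNB1 (3 libraries, 8, 9 and 10), OL Dam (3 libraries, 12, 13 and 14) and OPC Dam (2 libraries, 2 and 4).

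Each olfactory receptor gene encodes an odorant receptor, a G protein-coupled receptor that olfactory sensory neurons display to the air. The receptors form the largest gene family of the mouse and lie in tandem clusters on many chromosomes; those of chromosome 2 belong to class II, the group typical of land vertebrates, whereas class I receptors, related to those of fish, share 1 large cluster on chromosome 7. A sensory neuron transcribes a single receptor allele and keeps the rest in heterochromatin, and in other cell types, glia included, receptor clusters are known as AT-rich, silent DNA of the kind often held at the nuclear periphery.

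Promoter windows were available for 239 of the 288 receptors in RefSeq (assembly GRCm38.p6, 241 windows of 300 bases, from 250 bases before the annotated start to 50 after it). Those of Olfr350 and Olfr362, with the highest and the lowest score of cluster 1, of Olfr1289, with the highest score of all, of Olfr1317, with the largest rise in OL, and of Olfr73, a receptor for the clove odorant eugenol, are shown here because the results return to them. GATC, the site that Dam methylates, is in capitals, and each window is written 5′ to 3′ on the strand of its gene.
Olfr350 (chr2:36849798-36850097, plus strand): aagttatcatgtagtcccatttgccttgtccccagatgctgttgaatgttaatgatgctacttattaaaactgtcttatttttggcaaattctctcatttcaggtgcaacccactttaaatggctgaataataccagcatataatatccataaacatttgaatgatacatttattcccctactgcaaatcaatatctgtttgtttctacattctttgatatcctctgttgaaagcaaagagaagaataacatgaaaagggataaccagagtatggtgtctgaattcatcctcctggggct
Olfr362 (chr2:37105599-37105898, minus strand): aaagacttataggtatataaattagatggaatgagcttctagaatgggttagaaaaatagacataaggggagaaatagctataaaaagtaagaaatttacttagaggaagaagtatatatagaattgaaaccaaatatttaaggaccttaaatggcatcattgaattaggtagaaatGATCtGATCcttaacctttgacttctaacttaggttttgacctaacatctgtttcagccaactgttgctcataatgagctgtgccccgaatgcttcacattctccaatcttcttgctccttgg
Olfr1289 (chr2:111483182-111483481, plus strand): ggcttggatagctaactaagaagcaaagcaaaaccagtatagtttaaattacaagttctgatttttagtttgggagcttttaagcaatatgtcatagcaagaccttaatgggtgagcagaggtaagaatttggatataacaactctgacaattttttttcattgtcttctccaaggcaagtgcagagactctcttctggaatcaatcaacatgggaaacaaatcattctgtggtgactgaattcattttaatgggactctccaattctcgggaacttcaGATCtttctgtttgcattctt
Olfr1317 (chr2:112141697-112141996, plus strand): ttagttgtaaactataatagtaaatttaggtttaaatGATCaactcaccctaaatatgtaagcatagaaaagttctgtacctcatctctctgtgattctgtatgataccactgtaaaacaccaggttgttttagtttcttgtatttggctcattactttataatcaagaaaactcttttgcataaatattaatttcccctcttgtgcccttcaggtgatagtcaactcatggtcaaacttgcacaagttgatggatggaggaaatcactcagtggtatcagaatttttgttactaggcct
Olfr73 (chr2:88035088-88035387, minus strand): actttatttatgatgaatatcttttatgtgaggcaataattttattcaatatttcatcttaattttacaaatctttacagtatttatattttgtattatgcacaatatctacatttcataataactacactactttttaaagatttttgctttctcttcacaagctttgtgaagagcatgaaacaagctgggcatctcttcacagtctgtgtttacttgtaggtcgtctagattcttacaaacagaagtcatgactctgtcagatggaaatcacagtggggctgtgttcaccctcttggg

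In 182 of the 241 windows (75.5%) the annotated start was itself an ATG, against 5.83% of all 32851 windows of the assembly, so that most windows show the sequence before the start codon rather than before a mapped transcription start. The windows were AT-rich, with a median GC content of 32.7% (lowest 18.3%, highest 44.0%) against 52.7% over all windows. GATC, which reads the same on both strands, occurred in 46.1% of the receptor windows and in 48.0% of all windows. The window of Olfr362 held 2 such sites, those of Olfr1289 and Olfr1317 held 1 each, and those of Olfr350 and Olfr73 held 0. The homeodomain core TAATTA, also palindromic, occurred in 24.1% of the receptor windows against 5.29% of all windows, and CCCNNGGG, the core of sites for Ebf factors, in 2.07% against 13.7%. Receptor windows and all windows differ in GC content, and whether these motif shares depart from what base composition gives was not tested. As a description over 239 receptors, Spearman's rho with the mean score was 0.04 for GC content and −0.09 for the number of GATC sites. A DamID region is far wider than these windows, which therefore hold few of the sites behind a score.

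The authors deposited a score per region for each of the 6 Dam-LMNB1 libraries, taken against the pooled Dam libraries of the same condition. Scores above 0 stand for DNA methylated more by Dam-LMNB1 than by Dam alone, and the log base is not given, so differences are stated in score units. Read depth is unknown, and no interval for counting error could be given. A score averages over the cells of a library, so fewer cells with a contact and a weaker contact in each cell cannot be told apart. DamID measures no RNA, and the cells could be checked only by the scores of lineage genes: all 5 OPC genes (Pdgfra, Cspg4, Olig1, Olig2, Sox10) and the oligodendrocyte genes Mbp, Mog, Mag and Myrf lay below 0 in both conditions. Of the neuron genes, Snap25 and Syt1 lay above 0 and Rbfox3 and Tubb3 below. OL library 18 stood apart from the others over the receptors, and its values are given beside the results it touches.

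Every chromosome 2 receptor scored above 0 in every library. In the fit of limma to all regions, with Benjamini-Hochberg adjusted p under 0.05, 288 of 288 lay above 0 in OL, where 25.9% of all regions did, and 288 of 288 in OPC, where 25.5% of all regions did. All 6 libraries were above 0 in 288 receptors, against 24.8% of all regions. The lowest single score was 0.70, for Olfr1152 in OL library 18, and the highest was 3.402, for Olfr1289 in OL library 19. The median receptor had a score of 2.32 in OL and 2.38 in OPC, whereas the median region of the table had −1.47 in OL and −1.54 in OPC. Ranked by the mean of the 6 libraries, the receptors ran from rank 2 to rank 3679 of 21534, with a median rank of 533.5. Of the 100 regions with the highest scores, 44 were chromosome 2 receptors, 34 were other olfactory receptors and 22 carried no Olfr symbol.

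**Figure D1:**
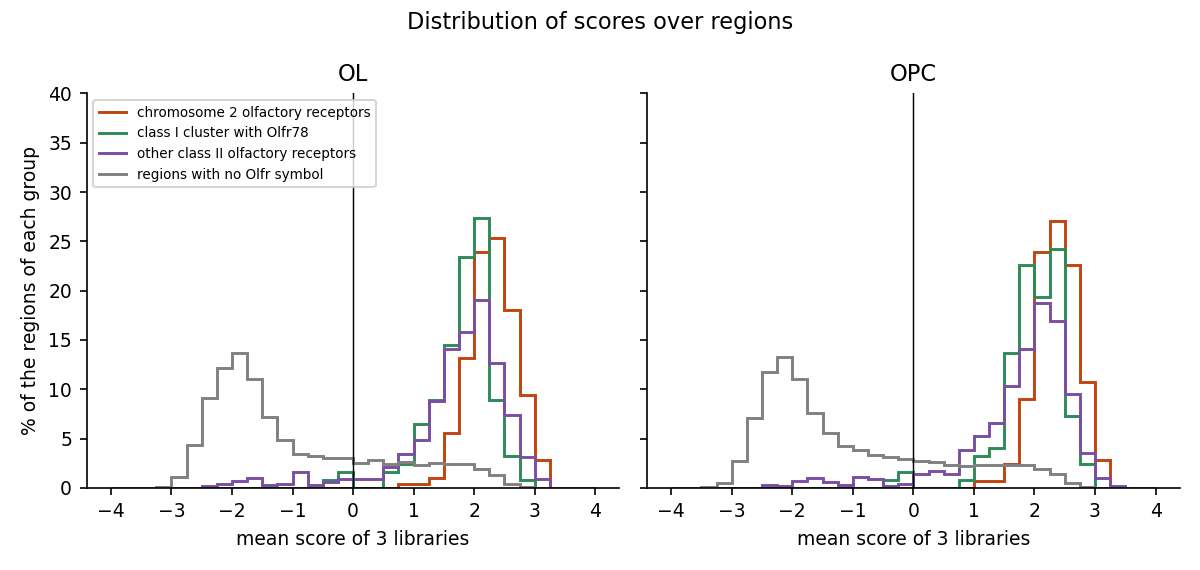
Distribution of the mean score of 3 libraries (x axis, score units) over regions, in OL (left) and OPC (right), as the percentage of each group's regions per bin (y axis). The chromosome 2 receptors form a single narrow peak, with medians of 2.32 in OL and 2.38 in OPC and no region below 0, while most regions with no Olfr symbol lie below 0.

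Compared with the other olfactory receptors, those of chromosome 2 had the higher scores. Their mean was 2.18, 2.39 and 2.34 in OL libraries 18, 19 and 20, and 2.36, 2.39 and 2.36 in OPC libraries 8, 9 and 10. The 124 receptors of the class I cluster on chromosome 7, which holds Olfr78, averaged 1.81 ± 0.05 in OL and 1.99 ± 0.03 in OPC (SD, n = 3 libraries each). The 704 class II receptors of other chromosomes and clusters averaged 1.69 ± 0.06 in OL and 1.75 ± 0.01 in OPC (SD, n = 3 libraries each). Within libraries, the chromosome 2 receptors exceeded the class I cluster by 0.44 and the other class II receptors by 0.61, higher in 6 of 6 libraries each time (exact sign-flip permutation test over libraries, two-sided, p = 0.03125 and adjusted p = 0.03125 for both, the smallest p that 6 libraries allow). Their scores also spread less: none of the 288 had a score at or below 0 in any library, whereas all 6 libraries were above 0 in 121 of the 124 class I receptors and in 653 of the 704 other class II receptors. Among the 21 receptor clusters of the genome with at least 10 regions, cluster 3 of chromosome 2 ranked 1 by mean score (2.57), cluster 2 ranked 5 (2.33) and cluster 1 ranked 10 (2.05). The lowest of the 21, on chromosome 11 with 24 regions, averaged 0.44.

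The clusters differ in size and in density. Cluster 1 held 28 receptors, Olfr338 to Olfr368, over 0.968 Mb (chr2:36366777-37334732, mm10), 20 of them on the plus strand. Cluster 2 held 223, Olfr987 to Olfr1274-ps, over 5.07 Mb (chr2:85328966-90403674), with 147 on the minus strand. Cluster 3 held 37, Olfr1275 to Olfr1318, over 0.930 Mb (chr2:111228852-112159007), with 21 on the minus strand. Receptors were packed at 28.9, 43.9 and 39.8 per Mb in clusters 1, 2 and 3, and gaps of 48.0 Mb and 20.8 Mb separate the clusters. A region spans its gene with a median of 10.0 kb upstream and 2.0 kb downstream of a gene of 0.945 kb (287 receptors matched to the RefSeq table of GRCm38.p6), so coding exon, UTRs and flanks share 1 score. The median region was 12.9 kb wide, and 70 of the 285 pairs of neighbouring receptor regions overlapped and thus share sites. By the same annotation, 283 of the 288 were protein-coding and 5 were transcribed pseudogenes, whose mean scores were 2.34 and 2.29.

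Mean scores were lowest in cluster 1, intermediate in cluster 2 and highest in cluster 3. Cluster 1 averaged 1.87, 2.07 and 2.05 in OL libraries 18, 19 and 20, and 2.07, 2.12 and 2.10 in OPC libraries 8, 9 and 10. Cluster 2 averaged 2.17, 2.39 and 2.34 in the same OL libraries, and 2.36, 2.39 and 2.36 in the OPC libraries. Cluster 3 averaged 2.46, 2.63 and 2.61 in OL, and 2.57, 2.60 and 2.58 in OPC. The order of the clusters was therefore the same in all 6 libraries, and library 18 was the lowest in each cluster. Cluster 2 exceeded cluster 1 by 0.29, cluster 3 exceeded cluster 1 by 0.53, and cluster 3 exceeded cluster 2 by 0.24, each in 6 of 6 libraries (exact sign-flip permutation test, two-sided, p = 0.03125 for each of the 3 pairs, adjusted p = 0.03125).

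The means of clusters 2 and 3 overlapped between OL and OPC, and those of cluster 1 did not. Cluster 1 averaged 1.997 ± 0.108 in OL and 2.097 ± 0.027 in OPC, a difference of −0.10 (SD, n = 3 libraries each; exact permutation test, two-sided, p = 0.1, adjusted p = 0.3). The highest OL library of cluster 1, at 2.0666, lay just below the lowest OPC library, at 2.0670, and the difference was −0.04 without OL library 18 and ran down to −0.14 with another library left out. Cluster 2 averaged 2.30 ± 0.11 in OL and 2.37 ± 0.02 in OPC, a difference of −0.07 (exact permutation test, p = 0.5, adjusted p = 0.75). Without OL library 18 it was −0.01 and without OL library 19 it was −0.12, with the means and SDs of the libraries made equal it was −0.01, and after quantile normalization −0.02. Cluster 3 averaged 2.57 ± 0.09 in OL and 2.58 ± 0.01 in OPC, a difference of −0.02 that turned to 0.05 with the libraries' means and SDs made equal, to 0.03 after quantile normalization and to 0.04 without OL library 18 (exact permutation test of the deposited scores, p = 1, adjusted p = 1). With 3 libraries against 3 the smallest p is 0.1, so no cluster could have passed 0.05. Cluster 3 lay further above cluster 1 in OL (0.57 ± 0.01) than in OPC (0.49 ± 0.01), and further above cluster 2 in OL (0.27 ± 0.02) than in OPC (0.21 ± 0.01), with non-overlapping libraries (SD, n = 3 each; exact permutation test, two-sided, p = 0.1, adjusted p = 0.15 for both). Cluster 2 exceeded cluster 1 by 0.30 ± 0.02 in OL and 0.27 ± 0.02 in OPC (exact permutation test, p = 0.2, adjusted p = 0.2). With the median over receptors in place of the mean, the sign of all 3 of these differences between conditions turned, to −0.03, −0.01 and −0.02.

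**Figure D2:**
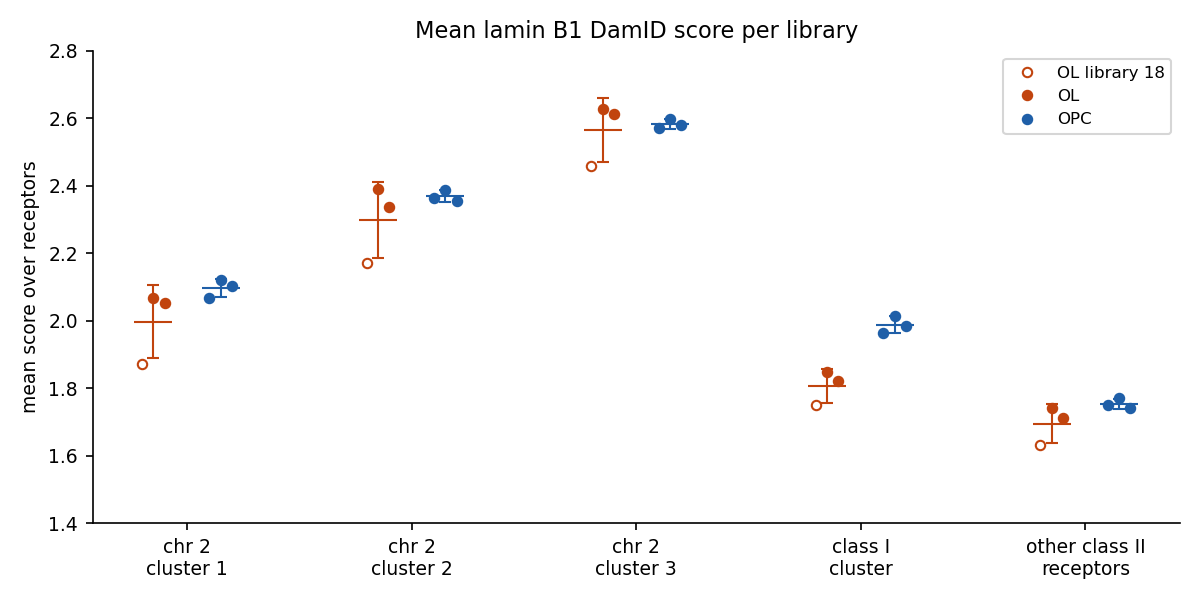
Mean lamin B1 DamID score (y axis, score units, not starting at 0) over the receptors of each cluster, with 1 point per library, a horizontal line for the mean and bars for ± 1 SD of 3 libraries. Cluster 3 is highest and cluster 1 lowest of the chromosome 2 clusters in OL and in OPC, and OL library 18 (open circles) is the lowest library in every group shown.

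Receptors within a cluster varied far less than regions of the whole table. The SD of the mean score was 0.316, 0.317 and 0.340 over the receptors of clusters 1, 2 and 3. It was 0.34 over the 288 together, against 1.53 over all regions. In cluster 1 the highest was Olfr350, with 2.34, 2.27 and 2.57 in OL libraries 18, 19 and 20 and 2.68, 2.61 and 2.50 in OPC libraries 8, 9 and 10. The lowest was Olfr362, with 0.72, 1.51 and 1.01 in OL and 1.186, 1.49 and 1.67 in OPC. Its libraries disagreed more than those of most receptors, for which the median SD over libraries was 0.15 in OL and 0.11 in OPC, and its OL and OPC scores overlapped. Olfr339 and Olfr3 followed Olfr350 at the top, with means of 2.42 and 2.39 over the 6 libraries. Olfr338 and Olfr368, the first and the last receptor of the cluster, were next to Olfr362 at the bottom, with means of 1.58 and 1.29.

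In cluster 2 the top 3 receptors were Olfr1086, Olfr1048 and Olfr1221. Olfr1086 scored 2.92, 3.09 and 3.06 in OL and 2.98, 3.05 and 2.92 in OPC, and Olfr1221 scored 3.11, 2.92 and 2.99 in OL and 2.98, 3.13 and 2.87 in OPC. For both, the OL and OPC libraries overlapped. Olfr1048 scored 3.05, 2.77 and 2.73 in OL and 3.14, 3.11 and 3.22 in OPC, lower in OL by a difference of −0.31 ± 0.10 (SE; limma adjusted p = 0.0364), a call that was kept in only 2 of 9 alternative fits: it was lost under both rescalings and without any 1 of OL libraries 19 and 20 and OPC libraries 8, 9 and 10, with adjusted p up to 0.181. The lowest receptor of the cluster was its last, Olfr1274-ps, with 0.76, 1.176 and 1.06 in OL and 1.16, 1.09 and 0.91 in OPC. Olfr1135 and Olfr1152 were the next lowest, with means of 1.497 and 1.496. Olfr1152 rested on a wide spread in OL, 0.70, 1.60 and 1.504, against 1.53, 1.77 and 1.88 in OPC.

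In cluster 3 the highest receptor was Olfr1289, with 2.76, 3.402 and 3.05 in OL and 3.24, 3.03 and 3.36 in OPC. Olfr1297 and Olfr1290 had means of 3.10 and 3.06 over the 6 libraries, so that the top 3 were all above any receptor of the other clusters. The lowest was the last receptor, Olfr1318, with 1.59, 1.60 and 1.67 in OL and 1.21, 1.25 and 1.12 in OPC, and these sets do not overlap. Olfr1278 and Olfr1317 followed with means of 2.12 and 2.14. The last receptor of each cluster was thus among its 3 lowest, while the first receptor was among the 3 lowest in cluster 1 only: Olfr987, the first of cluster 2, averaged 2.49 in OL and 2.29 in OPC, and Olfr1275, the first of cluster 3, averaged 3.02 in OL and 2.51 in OPC.

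Olfr73 and Olfr1019 were named as 2 receptors of cluster 2 with a known ligand. Olfr73, also called mOR-EG, responds to eugenol, and it scored 1.66, 2.11 and 2.14 in OL and 1.96, 2.14 and 2.06 in OPC. Olfr1019 responds to trimethylthiazoline, a compound of fox odour, and it scored 2.82, 2.79 and 2.83 in OL and 2.997, 3.06 and 2.78 in OPC. Olfr73 lay below the cluster's mean and Olfr1019 above it, and in neither did OL and OPC differ past the threshold (limma adjusted p = 0.621 and 0.272).

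At all 6 ends of the clusters the score was lower in the next gene without an Olfr symbol, by 1.76 to 3.32 in OL and by 1.396 to 3.24 in OPC. The largest step was at the distal end of cluster 2, where Olfr1274-ps averaged 1.00 in OL and 1.05 in OPC, and Ptprj, a receptor tyrosine phosphatase gene 27.2 kb further on, averaged −2.32 ± 0.09 in OL and −2.18 ± 0.05 in OPC (SD, n = 3 each). The step was 3.32 in OL and 3.24 in OPC, and the next gene, the nuclear pore gene Nup160, averaged −1.996 in OL and −2.202 in OPC. Beyond the distal end of cluster 1, Olfr368 averaged 1.29 in OL and 1.30 in OPC, whereas the phosducin-like gene Pdcl, 13.3 kb away, averaged −1.46 in OL and −1.69 in OPC, with Rc3h2, which encodes a RING-finger protein, at −2.23 in OL and −2.06 in OPC. Before cluster 1, Olfr338 averaged 1.53 in OL and 1.63 in OPC and the cyclooxygenase gene Ptgs1, at a distance of 112.5 kb, −0.24 in OL and −0.28 in OPC. Mrrf, a mitochondrial ribosome recycling factor, followed at −1.24 in OL and −1.03 in OPC. At these ends all 21, 11 and 9 neighbours within 1 Mb were below 0 in both conditions.

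At the other ends some or all neighbours within 1 Mb stayed above 0. Beyond cluster 3, Olfr1318 averaged 1.62 in OL and 1.191 in OPC, and Lpcat4, a lysophospholipid acyltransferase gene 70.8 kb further on, averaged −0.53 in OL and −0.61 in OPC, with Nutm1 next at −1.14 in OL and −1.16 in OPC. Before cluster 2, the nearest genes stayed above 0: Lrrc55, 122.3 kb from Olfr987, averaged 0.64 in OL and 0.89 in OPC, and Aplnr, the apelin receptor gene, averaged 0.35 in OL and 0.70 in OPC. The first gene with all 6 libraries below 0 on that side was Tnks1bp1, at 253.9 kb. Before cluster 3 no such gene lay within 1 Mb, and all 5 neighbours there were above 0 in both conditions, among them Ano3 (1.199 in OL, 1.09 in OPC), which encodes a TMEM16-family protein, and the mucin gene Muc15, the next gene on that side. Over all 6 ends, 15 of 80 neighbours without an Olfr symbol were above 0 and 65 below in OL, and the same numbers held in OPC. Of all regions, 25.9% were above 0 and 70.9% below in OL, and 25.5% and 71.4% in OPC (limma, adjusted p under 0.05).

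Only 3 regions with other symbols lay inside the clusters, and they scored like the receptors around them. Mir684-1, a microRNA gene inside cluster 1, averaged 2.16 ± 0.08 in OL and 2.07 ± 0.15 in OPC (SD, n = 3 each). Both genes inside cluster 2 belong to the PRAME-like family: Pramel7 averaged 2.20 ± 0.05 in OL and 2.10 ± 0.12 in OPC, and Pramel6 averaged 2.19 ± 0.02 in OL and 2.54 ± 0.06 in OPC. Pramel6 was lower in OL by −0.35 (limma adjusted p = 0.00676), with no overlap between its OL and OPC libraries, and the other 2 did not pass the threshold.

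**Figure D3:**
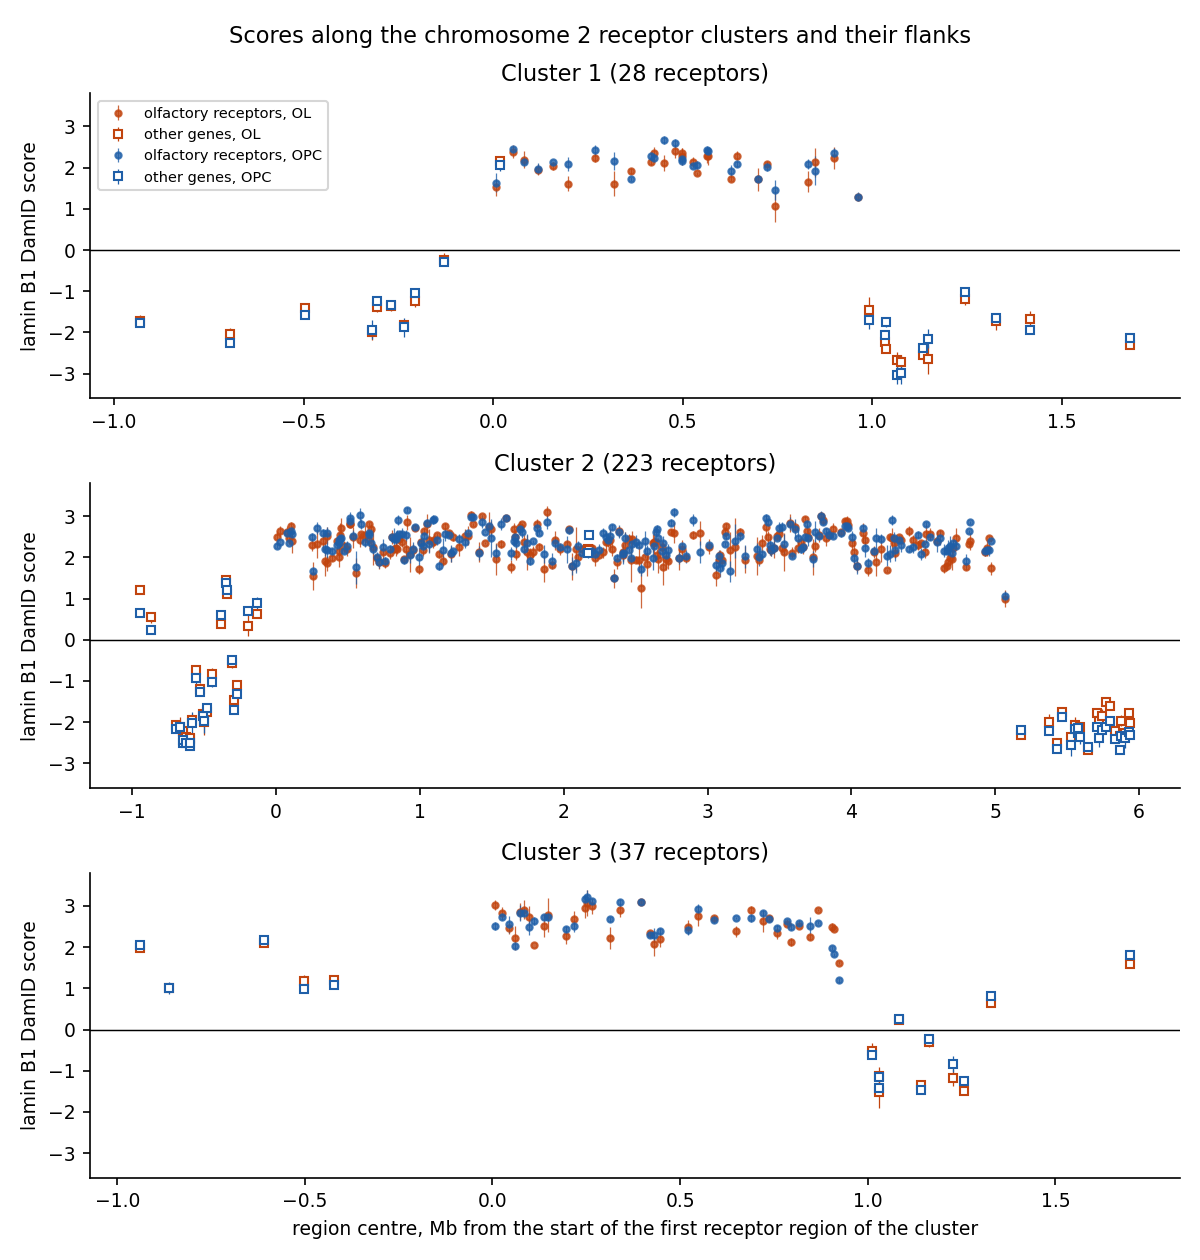
Mean score of 3 libraries (y axis, score units; bars ± 1 SD) against the distance of a region's centre from the start of the first receptor region of the cluster (x axis, Mb), for receptors (filled) and other genes within 1 Mb (open squares) in OL and OPC. Receptors form a plateau above 0 with a drop of 1.76 to 3.32 in OL to the nearest gene at each end. That gene is below 0 at both ends of cluster 1 and at the distal ends of clusters 2 and 3, and above 0 at the proximal ends of clusters 2 and 3.

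Along cluster 2, the largest, the plateau was uneven. In windows of 0.5 Mb over its first 5.0 Mb, the mean score ran between 2.13 and 2.54 in OL and between 2.24 and 2.55 in OPC. The window with the highest mean lay 3.5 to 4.0 Mb from the proximal end and held 24 receptors, Olfr1204 to Olfr1232, with 2.54 ± 0.05 in OL and 2.55 ± 0.04 in OPC (SD over 3 libraries). The window from 2.5 to 3.0 Mb, with 20 receptors from Olfr1151 to Olfr1173, had the lowest OL mean, 2.13 ± 0.17, against 2.33 ± 0.03 in OPC. In that window and in the one from 4.5 to 5.0 Mb (2.18 ± 0.05 in OL, 2.33 ± 0.04 in OPC, 19 receptors) the OL and OPC libraries did not overlap. In them 7 and 6 receptors were called lower and 0 and 1 higher, where 10.9% of all regions were lower and 23.0% higher. Of the falls from 2.5 to 3.0 Mb, only that of Olfr74 passed in all 9 alternative fits. Of those from 4.5 to 5.0 Mb, all but that of Olfr1262 did. These windows were set by position and not tested one by one.

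Neighbouring receptors resembled each other mainly where their regions overlapped. As a description over pairs, which share sequence where they overlap, Pearson's r between the mean scores of neighbours was 0.54 for 70 overlapping pairs and 0.24 for 215 that do not overlap. These values pool the 3 clusters, so the differences in level between clusters enter them. Within clusters 1, 2 and 3, r for the pairs that do not overlap was −0.08, 0.09 and 0.23. For the overlapping pairs of cluster 2 it was 0.45. For the OL minus OPC difference, pooled over the clusters, r was 0.49 for the overlapping and −0.02 for the other pairs. Scores near the ends of a cluster were compared with those further inside as a description. In cluster 1 the 5 receptors within 100 kb of an end averaged 1.93 in OL and 1.98 in OPC, and the 23 further inside averaged 2.01 in OL and 2.12 in OPC. In cluster 2 the means were 2.24 in OL and 2.25 in OPC for the 7 receptors within 100 kb, 2.191 in OL and 2.32 in OPC for the 31 at 100 to 500 kb, and 2.32 in OL and 2.38 in OPC for the 185 further inside. In cluster 3 the 12 receptors within 100 kb averaged 2.56 in OL and 2.34 in OPC, and the 25 further inside averaged 2.57 in OL and 2.70 in OPC, so the lower scores near the ends of cluster 3 were seen in OPC and not in OL.

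Between the conditions most receptor regions did not differ past the threshold. Of the 288, 18 were higher in OL (6.25%, where 23.0% of all regions were), 43 were lower (14.9%, where 10.9% of all regions were) and 227 were not called (limma, adjusted p under 0.05 over all regions). Calls in either direction made up 21.2% of the receptors, and 33.9% of all regions. The OL and OPC libraries of 82 receptors did not overlap (28.5%), 26 of them higher and 56 lower, against 48.9% of all regions. The median difference was −0.05 over the receptors and 0.10 over all regions. Among the 4270 regions that carry no Olfr symbol and lie above 0 in all 6 libraries, 16.8% were higher and 15.2% lower, so the receptors' share of falls lay near that of these regions and their share of rises was smaller. These shares were not taken at equal precision. The median SE of the difference was 0.102 over the receptors, 0.0934 over all regions and 0.0795 over the 4270 regions.

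The balance of rises and falls depended on the scale of the libraries. Once the libraries had been given equal means and SDs, 29 receptors were higher (background 15.5%) and 28 lower (background 15.1%), so that the share of rises among the calls was 50.9% against 29.5% on the deposited scores. After quantile normalization 29 were higher (background 15.5%) and 31 lower (background 15.2%). Leaving out OL library 18 gave 33 higher (background 18.7%) and 35 lower (background 11.9%), and moved the receptors' median difference to 0.01. Without OL library 19 there were 11 higher (background 19.2%) and 41 lower (background 8.3%), and without OL library 20 there were 11 higher (background 18%) and 31 lower (background 8.05%). Without OPC library 8 there were 17 higher (background 17.7%) and 39 lower (background 8.2%), and without OPC library 9 there were 11 higher (background 14.6%) and 27 lower (background 7.77%). Without OPC library 10 there were 12 higher (background 16.4%) and 30 lower (background 8.15%). In these 6 fits 3.82% to 11.5% of the receptors were higher, below the background each time, and 9.38% to 14.2% were lower, above the background each time but close to it without OL library 18 (12.2%). Under equal means and SDs 9.72% of the receptors were lower, and after quantile normalization 10.8%, both below the background. Library 18 was the lowest of the 6 in 141 receptors (49.0%, against 10.3% of all regions) and the lowest of the 3 OL libraries in 200 (69.4%, against 20.5%). Over all regions its mean was −0.79, the highest of the 6, and its SD of 1.46 was the smallest, where the other 5 libraries had 1.53 to 1.59. On the deposited scores the calls were 0 higher and 4 lower (14.3%) in cluster 1, and 13 higher (5.83%) and 35 lower (15.7%) in cluster 2. In cluster 3 they were 5 higher (13.5%) and 4 lower (10.8%). Of all regions, 23.0% were higher and 10.9% lower. Of the 61 calls, 9 of the 18 rises and 20 of the 43 falls passed the threshold under all 9 of both rescalings, no variance trend and each library left out in turn. All 61 kept their sign there. By the adjusted p of the authors' deposited table, 3 receptors passed 0.05, which were Olfr1314 and Olfr1317, higher in OL, and Olfr1093, lower in OL. By that same adjusted p, 676 of all 21534 regions passed 0.05.

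**Figure D4:**
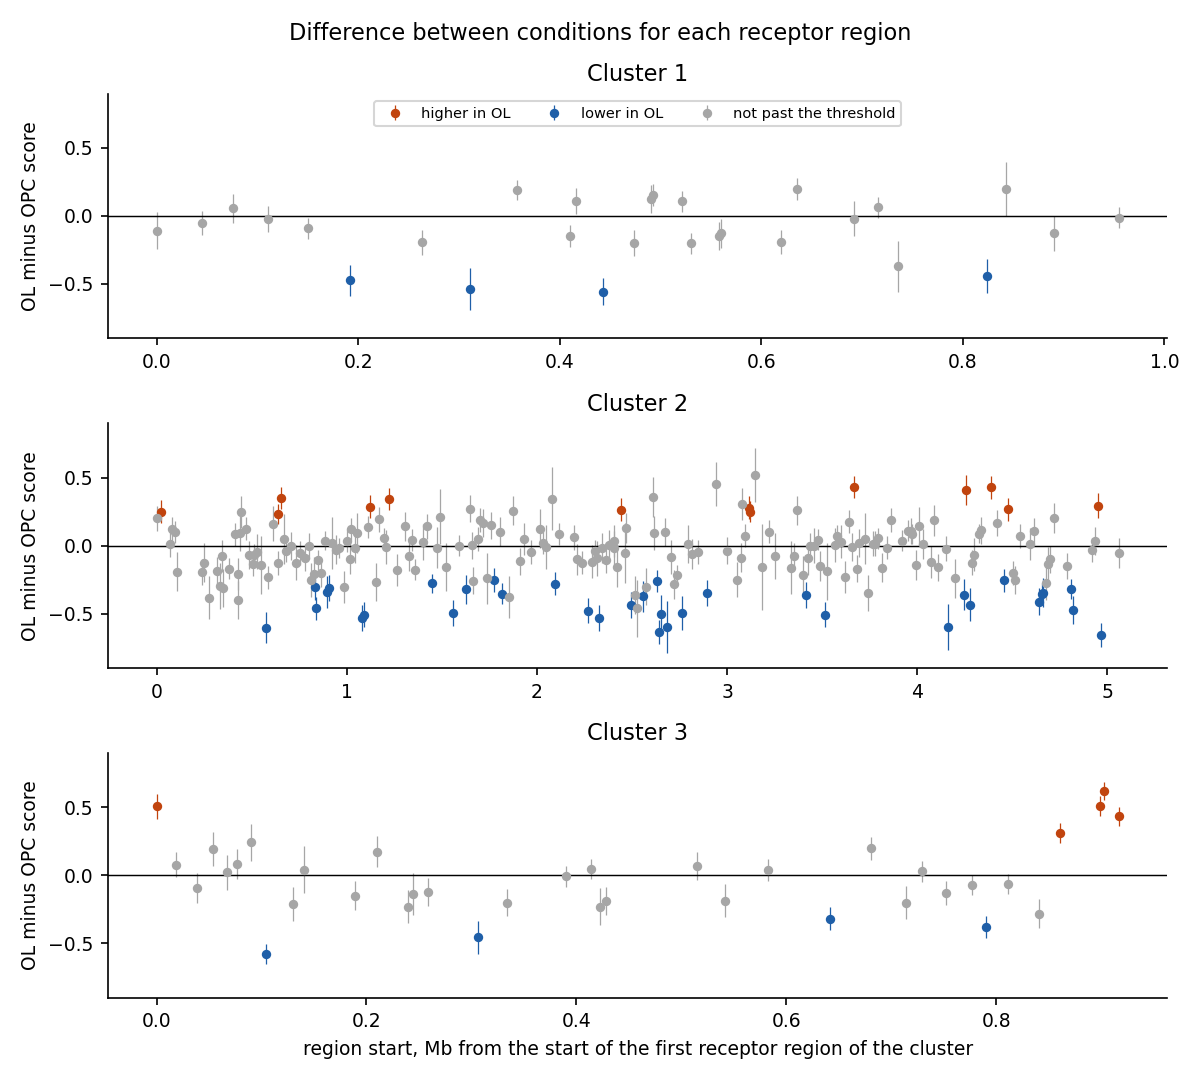
OL minus OPC difference of each receptor (y axis, score units; bars ± 1 SE from limma) against the distance of its start from the start of the cluster (x axis, Mb), coloured by whether it passed adjusted p under 0.05. The deposited scores gave 18 rises and 43 falls (29 and 28 with the libraries' means and SDs made equal), and 4 of the 5 rises in cluster 3 lie next to each other at its distal end.

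Of the 5 largest rises among called receptors whose OL and OPC libraries do not overlap, 4 were at the ends of cluster 3. By size alone Olfr1184 and Olfr1173 of cluster 2, named after their values were seen, had differences of 0.52 and 0.46 and stood among the top 5 too, but neither was called (limma adjusted p = 0.0690 and 0.0554) and their OL and OPC libraries overlap. Olfr1317, the last receptor but 1 of cluster 3, scored 2.43, 2.47 and 2.44 in OL against 1.81, 1.798 and 1.87 in OPC. Its neighbour Olfr1316 scored 2.41, 2.60 and 2.48 in OL against 1.94, 1.996 and 2.02 in OPC. In both, the lowest OL library lay well above the highest OPC library. The differences were 0.62 ± 0.07 and 0.51 ± 0.08 (SE; limma adjusted p = 5.09e-04 and 0.00179). These 2 regions overlap by 8.87 kb, so they are not separate measurements.

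Olfr1318, the last receptor, whose start lies 0.999 kb past the end of the Olfr1317 region, rose by 0.43 ± 0.07 (SE; limma adjusted p = 0.00237), all 3 OL libraries above all 3 OPC libraries. Olfr1314, singled out after its values were seen because it is the receptor region next to Olfr1316, scored 2.87, 2.93 and 2.92 in OL against 2.58, 2.64 and 2.56 in OPC, a rise of 0.31 ± 0.07 (SE; limma adjusted p = 0.0104). The last 4 receptors of cluster 3 thus rose one after the other. This was the only run of 4 called neighbours with the same direction in the 3 clusters; the other 8 runs held 2 or 3. Lpcat4, 70.8 kb beyond, did not pass the threshold, with a difference of 0.08 (limma adjusted p = 0.554).

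At the other end of cluster 3, its first receptor Olfr1275 scored 2.88, 3.11 and 3.07 in OL against 2.63, 2.47 and 2.43 in OPC, a rise of 0.51 ± 0.09 (SE; limma adjusted p = 0.00414). In the middle of cluster 2, Olfr1215 scored 2.93, 2.86 and 3.01 in OL against 2.43, 2.50 and 2.57 in OPC, a rise of 0.43 ± 0.08 (SE; limma adjusted p = 0.00408). Their OL and OPC libraries did not overlap. All 5 of these rises passed the threshold under both rescalings and with any 1 library left out.

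The 5 largest falls, chosen by the same rule, were all in cluster 2. Olfr1273-ps, a transcribed pseudogene and the last receptor but 1 of the cluster, scored 1.57, 1.77 and 1.88 in OL against 2.41, 2.37 and 2.40 in OPC. Olfr74 scored 1.92, 2.12 and 2.16 in OL against 2.69, 2.61 and 2.79 in OPC, and Olfr1024 scored 2.26, 2.59 and 2.43 in OL against 3.22, 2.88 and 2.99 in OPC. In all 3 the highest OL library was below the lowest OPC library. The differences were −0.66 ± 0.09, −0.63 ± 0.09 and −0.60 ± 0.11 (SE; limma adjusted p = 0.00117, 0.00138 and 0.00478), and each passed under both rescalings and with any 1 library left out.

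The other 2 of the largest falls rested on individual libraries. Olfr1161 scored 1.25, 1.98 and 2.05 in OL against 2.35, 2.53 and 2.19 in OPC, a difference of −0.60 ± 0.19 (SE; limma adjusted p = 0.0362). Olfr1242 scored 1.53, 2.19 and 1.91 in OL against 2.22, 2.50 and 2.70 in OPC, also −0.60 with an SE of 0.17 (limma adjusted p = 0.0238). OL library 18 was the lowest in both. The call of Olfr1161 was lost under both rescalings and without OPC library 8 or 9, with adjusted p up to 0.108, and without OL library 18 its difference was −0.35. The call of Olfr1242 was lost without OL library 18 or 20 and without OPC library 9 or 10, with adjusted p up to 0.0755.

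**Figure D5:**
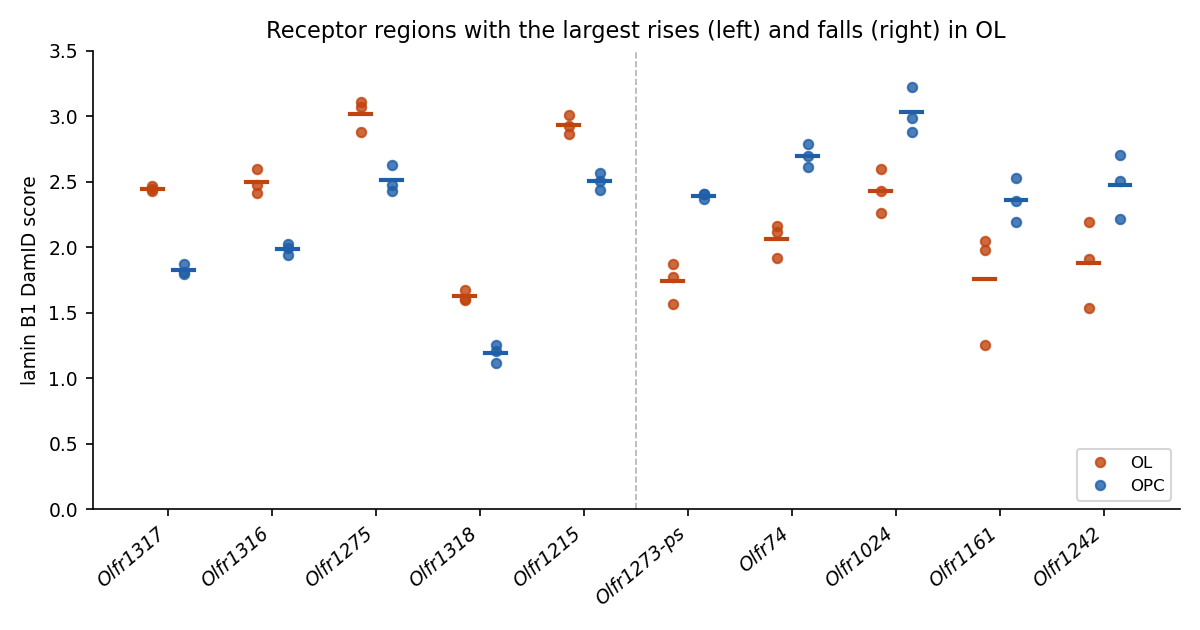
Score (y axis, score units) of each library, as points, for the 5 receptors with the largest rise (left of the dashed line) and the 5 with the largest fall (right) in OL, with OL left of OPC and a horizontal line at the mean of 3 libraries. The 10 were chosen among calls whose OL and OPC libraries do not overlap, and all scores stay above 1, from 1.12 for Olfr1318 in OPC to 3.22 for Olfr1024 in OPC.

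Neighbouring receptors did not always move together. Of the 17 pairs of neighbours in which both were called, all 10 whose regions overlap had the same direction, 3 higher and 7 lower. Of the 7 that do not overlap, 2 were both higher, 1 was both lower and 4 had opposite directions. These opposite pairs were singled out after their values were seen. Olfr1272, which scored 2.47, 2.45 and 2.51 in OL and 2.02, 2.20 and 2.34 in OPC, rose by 0.29 ± 0.09 (SE; limma adjusted p = 0.0337) only 1.36 kb from the Olfr1273-ps region, which fell. Olfr1246, with 2.39, 2.55 and 2.57 in OL and 2.30, 1.89 and 2.08 in OPC, rose by 0.41 between Olfr1245 (difference −0.36) and Olfr1247 (difference −0.43). In the fourth pair Olfr1254 had a difference of −0.25 and Olfr1255 one of 0.27. Each of these calls except that of Olfr1273-ps was lost in at least 3 of the 9 alternative fits. The overlapping regions Olfr1157, Olfr74 and Olfr1158 all fell, by differences of −0.26, −0.63 and −0.51, with Olfr1157 passing in only 2 of the 9 alternatives and Olfr1158 in 6.

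In cluster 1 no receptor was called higher. The 4 that fell were Olfr344, Olfr346, Olfr3 and Olfr365, with differences of −0.47, −0.54, −0.56 and −0.44. Olfr3, which is among the 3 highest of the cluster, scored 2.19, 2.25 and 1.899 in OL against 2.76, 2.58 and 2.67 in OPC (SE 0.10; limma adjusted p = 0.00441). Olfr346 lost its call without OL library 18, OPC library 9 or OPC library 10, and Olfr365 without OL library 18, OL library 20 or OPC library 9. Olfr344 and Olfr3 passed in all 9 alternative fits. In cluster 3 the 4 falls were Olfr1282, Olfr1294, Olfr1305 and Olfr1311. Olfr1282 scored 2.06, 2.05 and 2.06 in OL against 2.53, 2.66 and 2.71 in OPC, a difference of −0.58 ± 0.08 (SE; limma adjusted p = 0.00102), with no overlap. Olfr344, Olfr346, Olfr365 and the falls of cluster 3 were named after their values were seen.

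Genes that work with the receptors did not share their high scores. The list held 32 genes for odorant signalling, receptor transport and receptor choice, with 33 regions, since Pde4a has 2. In OL 5 of these regions were above 0 and 28 below, where 25.9% of all regions were above and 70.9% below (limma, adjusted p under 0.05). In OPC 5 were above and 27 below, where 25.5% of all regions were above and 71.4% below. Their medians of −1.54 in OL and −1.66 in OPC were close to those of all regions, −1.47 in OL and −1.54 in OPC. The 5 above 0 were Ano2, a calcium-activated chloride channel (1.26 in OL, 1.27 in OPC), Ncam2, an adhesion molecule of olfactory axons (1.25 in OL, 0.98 in OPC), Pde1c, a phosphodiesterase of the cilia (1.30 in OL, 0.85 in OPC), Cnga2, a subunit of the cyclic nucleotide-gated channel (0.81 in OL, 0.37 in OPC), and the transcription factor Ebf1 (0.48 in OL, 0.33 in OPC). At the bottom were the histone demethylase Kdm1a (−2.91 in OL, −2.89 in OPC) and the chromatin remodelling subunit Bptf (−2.83 in OL, −2.82 in OPC), both of which take part in receptor choice. Lhx2, a homeodomain factor for receptor genes whose own gene is on chromosome 2, was at −2.17 in OL and −2.21 in OPC.

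Between the conditions, 8 of the 33 regions of this list were higher in OL and 3 lower, where 23.0% of all regions were higher and 10.9% lower. With the libraries' means and SDs made equal 5 were higher and 9 lower, where 15.5% of all regions were higher and 15.1% lower. Among the list genes above 0, Pde1c scored 1.28, 1.34 and 1.28 in OL against 0.89, 0.83 and 0.84 in OPC, a rise of 0.45 ± 0.06 (SE; limma adjusted p = 0.00143). Ncam2 and Cnga2 rose by 0.26 ± 0.07 and 0.43 ± 0.10 (SE; limma adjusted p = 0.0157 and 0.00916). In all 3 the OL and OPC libraries did not overlap, while Ano2 and Ebf1 did not pass the threshold. The 3 falls of the list were Slc24a4, Ebf3 and Kirrel3, with differences of −0.59, −0.44 and −0.22 (limma adjusted p = 8.91e-04, 0.00365 and 0.0473). The largest of the 8 rises was that of Gng13, at 0.59 (limma adjusted p = 0.00215). These 4 genes were named after their values were seen.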

How the data were processed

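Dam-LMNB1 and untethered Dam libraries of OL and OPC were sequenced after methylation-specific PCR, and per the submitters' processing notes the tools were BWA 0.7.17 and cutadapt 1.9.1, with mm10 as the genome build. The authors deposited a score per gene region for each of the 6 Dam-LMNB1 libraries, which per the file headers was taken against the pooled Dam libraries of its condition; the step from reads to scores was not given in the sources used here. Also deposited by the authors were a p-value and an adjusted p-value per region. No sample columns were left unused, and depth is unknown.

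The deposited scores were used unchanged and unfiltered. In R 4.3.3, limma 3.58.1 estimated a mean for each condition over all 21534 regions and 6 libraries, with a trend in the variance (9.42 degrees of freedom in total). Two-sided tests set each mean against 0 and OL against OPC, and p-values were adjusted by Benjamini-Hochberg over all regions at 0.05; the procedure was tested on simulated data. Means over receptors were compared by exact permutation tests over libraries. Because the scores of a condition share 1 Dam denominator and the labels do not give separate cultures or animals, the p-values reflect nothing beyond the spread of these libraries, which may be technical. Names, gene types and promoter windows came from RefSeq tables of GRCm38.p6. The alternatives were libraries with means and SDs made equal, quantile normalization, no trend, a Welch test per region, protein-coding or non-overlapping regions, medians, other cluster gaps and each library left out.

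Named were, in each cluster, the 3 receptors with the highest and the 3 with the lowest mean, the 5 largest rises and falls among calls whose libraries do not overlap, the 2 nearest neighbours per end, the regions inside clusters, Olfr73 and Olfr1019, and list genes above 0 or extreme. The receptors and lists were chosen with earlier results of these data known. Protein sequences and the Dam libraries alone were not analysed here.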

Additional observations from a re-analysis of the deposited data

How the results depend on the processing

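All 288 receptors lay above 0 in OL and in OPC with libraries rescaled, without the trend and with any 1 library left out, and the Welch test per region gave 287 in OL and 288 in OPC. The number of receptors higher in OL, 18, came to 29 with the libraries' means and SDs made equal, 29 after quantile normalization, 4 with the Welch test and 11 to 33 with 1 library left out (33 without OL library 18, 11 without OL library 19, OL library 20 or OPC library 9). The number lower, 43, came to 28 with means and SDs made equal, 1 with the Welch test and 27 to 41 with 1 library left out (27 without OPC library 9). Quantile normalization gave 31 lower. Over all 21534 regions, the Welch test called only 566 higher and 359 lower. Of the signalling and choice list, 5 were higher and 9 lower with means and SDs made equal, 5 and 7 after quantile normalization, and 4 to 6 and 2 to 4 with 1 library left out, against 8 and 3. With 1 library left out the OL minus OPC difference ran from −0.135 to −0.0379 in cluster 1 (−0.10 with all) and from −0.116 to −0.00695 in cluster 2 (−0.07 with all), nearest 0 without OL library 18 in both. That of cluster 3 was −0.0168 as deposited, 0.0518 with means and SDs made equal and 0.0321 after quantile normalization, and it ran from −0.0481 to 0.0374 with 1 library left out, the positive value being without OL library 18. Over medians, the difference between conditions turned to −0.0241 for cluster 2 minus cluster 1, −0.0313 for cluster 3 minus cluster 1 and −0.00721 for cluster 3 minus cluster 2. With 1 library left out, the chromosome 2 receptors exceeded the class I cluster by 0.42 to 0.45 and the other class II receptors by 0.61 to 0.63, cluster 2 exceeded cluster 1 by 0.28 to 0.29, cluster 3 exceeded cluster 1 by 0.52 to 0.54 and cluster 3 exceeded cluster 2 by 0.23 to 0.25; the exact p was 0.0625 each time, the smallest that 5 libraries allow. The causes of the other shifts were not tested. Gaps of 0.5 Mb and 2 Mb gave the same 3 clusters. No paired analysis was possible because the replicate numbers of OL (18, 19, 20) and OPC (8, 9, 10) do not repeat. Depth is unknown, 3 libraries a condition limit every comparison, and the variation between Dam libraries is in no p-value.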
